A study of Homo sapiens with 2 samples.

Results

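The mRNAs of the cytosolic ribosomal proteins were followed through a map of the RNA contacts of YB-1 in human HEK293T cells. The group was defined by gene symbol alone. It takes the GENCODE v44 protein-coding genes named RPL or RPS with a number, RPLP0 to RPLP2, RPSA and FAU. RPS27A, whose product is a ubiquitin fusion, the RPS6K kinases, RPS19BP1 and read-through genes were left out. It holds 87 of 20033 protein-coding genes outside the mitochondrial genome, with 53 of the large and 34 of the small ribosomal subunit, and 10 of them are paralogs of core proteins. Both libraries, Rep.A and Rep.B, came from wild-type HEK293T cells, a line of embryonic kidney origin. 4-thiouridine (100 µM) was given for 16 h, and the cells were irradiated at 365 nm with 0.15 J/cm2. Immunoprecipitation with antibodies against YB-1 followed. With 1 condition and without a control library, the comparisons below are between replicates and between groups of genes. The study's methods call the replicates independent, and whether the cultures were grown apart is not stated in the sources used here.

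Ribosomal proteins assemble with ribosomal RNA into the large and small subunits of the ribosome. Their mRNAs are short, abundant in dividing cells and mostly carry a 5′ terminal oligopyrimidine tract, the TOP motif, through which growth signals set their translation. YB-1 is a cold-shock domain protein that packages mRNA in the cytoplasm. In PAR-CLIP, 4-thiouridine in the RNA is crosslinked to the bound protein and is then read as C in place of T. A cluster is a stretch of reads around such T-to-C positions. RNase T1, which trims the bound RNA, cuts after G.

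The sequences of 13 of the regions found in both replicates are printed first, as the RNA strand with T for U, because the later comparisons of motif, codon frame and genomic copies rest on them. All are on hg38. Capitals mark the letters CATC and CACC, which were searched on the RNA strand and may overlap each other. The first 6 regions hold CATC, the next 2 only CACC and the next 3 neither. The last 2, from 3′ UTRs, hold neither as well.
RPS4X region 1, chrX:72275662-72275680, minus strand: ccccctCATCattttcctg
RPS4X region 2, chrX:72273868-72273889, minus strand: ctaccccgatcccctCATCaag
RPLP0 region 2, chr12:120198649-120198673, minus strand: ctcaaCATCtcccccttctcctttg
RPLP0 region 3, chr12:120197374-120197403, minus strand: accccattctatCATCaacgggtacaaacg
RPSA region 1, chr3:39408607-39408628, plus strand: CATCtatatcataaatctcaag
RPL38, chr17:74209244-74209267, plus strand: acctttaCACCctggtCATCactg
RPL27, chr17:43000075-43000094, plus strand: ataactacaatCACCtaatg
RPL27A, chr11:8684056-8684074, plus strand: CACCACCggatcaacttcg
RPL29, chr3:51993780-51993800, minus strand: tccagctcaggctcccaaacg
RPL23, chr17:38850448-38850470, minus strand: ccagcagtggtcattcgacaacg
RPL6 region 1, chr12:112405963-112405985, minus strand: cattgccacttcaaccaaaatcg
RPL39, chrX:119786616-119786639, minus strand: tcacgatcatgttaccatatcaag
RPL15 region 2, chr3:23920203-23920223, plus strand: caaccctaaaatacttaaccg

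The tables analysed here held 1382 (Rep.A) and 2011 clusters (Rep.B), of which 31 and 34 lay in exons of the 87 genes on the coding strand. Coverage was not scaled for depth, the total of mapped reads that the study gives for each library was not used here, and the level of each mRNA was not measured in these libraries. Strong binding and an abundant mRNA therefore cannot be told apart here. The HEK293T label could not be set against marker genes, since the tables list clusters and no expression.

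A shared region, meaning Rep.A and Rep.B clusters that overlap by at least 1 base on 1 strand, was present in 19 of the 87 genes, or 21.8%. Among the other protein-coding genes 2.58% had one. The count depended on the clusters admitted. It was 6 of 87, or 6.90%, with clusters whose sequence occurs once in hg38, against 2.03% of the other genes. It was again 6 with clusters at or above the median relative log odds of their table, against 1.15%. It was 30 when identical genomic copies were pooled as described further on. Copies were pooled for the ribosomal protein genes only, so the 30 has no share of the other genes beside it. Of the genes with any exon cluster, 19 of 28 ribosomal protein genes, or 67.9%, had a shared region, against 63% of the others. The difference in counts lay in how many genes had a cluster at all, and the share of those with a partner in the other table was near that of the other genes. The shared regions numbered 26, of which 15 lay in 11 large subunit genes and 11 in 8 small subunit genes. In 23 of the 26, the clusters of both tables had the same start and end.

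RPLP0, the protein that anchors the ribosomal stalk, had 3 shared regions. Among the genes with 2 were RPL15 and RPL6 of the large subunit and RPS4X and RPSA of the small subunit, and 13 genes had 1. Clusters in 1 table alone were seen for RPL14, RPL17 and RPS15 in Rep.A and for genes that included RPL10, RPL10L, RPL19, RPL5 and RPS18 in Rep.B. Of the 10 paralogs, RPL10L was the one with a cluster. That cluster, with 4 reads per base in Rep.B, had the same sequence as the RPL10 cluster in coding sequence. The sequence had 8 exact copies in hg38, and which gene the reads came from was not tested.

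No cluster lay in exons of the other 59 genes. In the large subunit these included RPL3, RPL3L, RPL4, RPL7, RPL7A, RPL7L1, RPL9, RPL10A, RPL11, RPL12, RPL13, RPL13A, RPL21, RPL22, RPL22L1, RPL23A, RPL24, RPL26, RPL26L1, RPL28, RPL30, RPL31, RPL32, RPL34, RPL35, RPL35A, RPL36, RPL36A, RPL36AL, RPL37, RPL37A, RPL39L, RPL41, RPLP1 and RPLP2. In the small subunit they included RPS3, RPS3A, RPS4Y1, RPS4Y2, RPS7, RPS9, RPS10, RPS12, RPS14, RPS15A, RPS16, RPS19, RPS20, RPS21, RPS23, RPS24, RPS26, RPS27, RPS27L, RPS28, RPS29 and FAU. RPLP1 and RPLP2, which form the stalk on RPLP0, were thus without a cluster, as was RPL11, the partner of RPL5 in the 5S ribonucleoprotein particle. RACK1, a ribosomal scaffold protein outside the group, had 0 clusters in Rep.A, 1 in Rep.B and no shared region. The coding sequence had a median of 571 bases, stop codon included, in the 19 genes with a shared region and of 438 bases in the 59 genes without a cluster. Among these 59 are 9 genes, RPS27 and RPL31 included, whose mRNA sequence carried clusters at identical copies, as described further on.

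Of the Rep.A clusters in the ribosomal protein genes, 26 of 31 were found in Rep.B, or 83.9% (95% Wilson interval 67.4 to 92.9%, counting error only), against 85.4% for the other protein-coding genes. Of the Rep.B clusters, 26 of 34 were found in Rep.A, or 76.5% (60.0 to 87.6%), against 66.2%. In both directions the share for the other genes lay inside the interval. Coverage of the clusters seen in Rep.B alone had a median of 7.34 reads per base over 8 clusters, and that of RPS18, at 46.5, stood far above the rest. The 26 Rep.B clusters with a partner in Rep.A had a median of 23.8.

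Taken at the gene, without identical copies, the highest coverage was found on mRNAs of the large subunit. RPL18 had 60.9 reads per base (Rep.A) and 168.2 (Rep.B) and ranked 6 of the 625 shared regions in protein-coding exons by the geometric mean of both tables. RPL29 had 50.7 and 123, rank 11. RPL8 had 44.3 and 117, rank 15. These 3 and RPL23, with 43 and 100, formed the upper end of the group at the gene in both replicates.

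In the small subunit, RPS4X, the X-linked form of a protein of which men also carry Y-linked copies, came first at the gene. Its region 1, in the front part of the coding sequence, had 33 reads per base in the first replicate and 97 in the second. Its region 2 had 23.8 and 54.1. The RPS27 site found through identical copies alone, described further on, had summed values of 50.9 and 213.9, above both RPS4X regions. RPS4Y1 and RPS4Y2 had no cluster, and whether these cells carry a Y chromosome was not examined.

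The 3 regions of RPLP0 differed among themselves. Region 2 had 30 (Rep.A) and 80.6 reads per base (Rep.B), region 1 had 9 and 21, and region 3 had 7.67 and 14.3. RPL6 had 28.7 and 77.8 in region 1 and 7.96 and 15.4 in region 2. These are values at the gene, and the orders did not hold when reads at identical copies were added. RPL6 region 2 then had 49.7 and 96.4, above region 1, and RPLP0 regions 1 and 3 had 9 and 38.3 in Rep.A but 139 and 14.3 in Rep.B.

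Other regions had lower values. RPSA, the laminin receptor protein of the small subunit, had 10 and 23 in region 1 and 6.82 and 20.6 in region 2. RPL15 had 13.8 and 12.8 in the coding region and 5 and 22 in the 3′ UTR. With identical copies added, the coding region had 23.6 and 33.8 and the 3′ UTR region 8 and 31. RPL27 had 23.9 and 46.4, and RPL39 14.8 and 46.5. RPS6, the substrate of the S6 kinases, had 5 and 7.65 at the gene and 13 and 47.3 with its copies added. RPS2, last in the group at the gene with 2.68 and 11.9, had 31.7 and 64.1 with its copies.

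**Figure D1:**
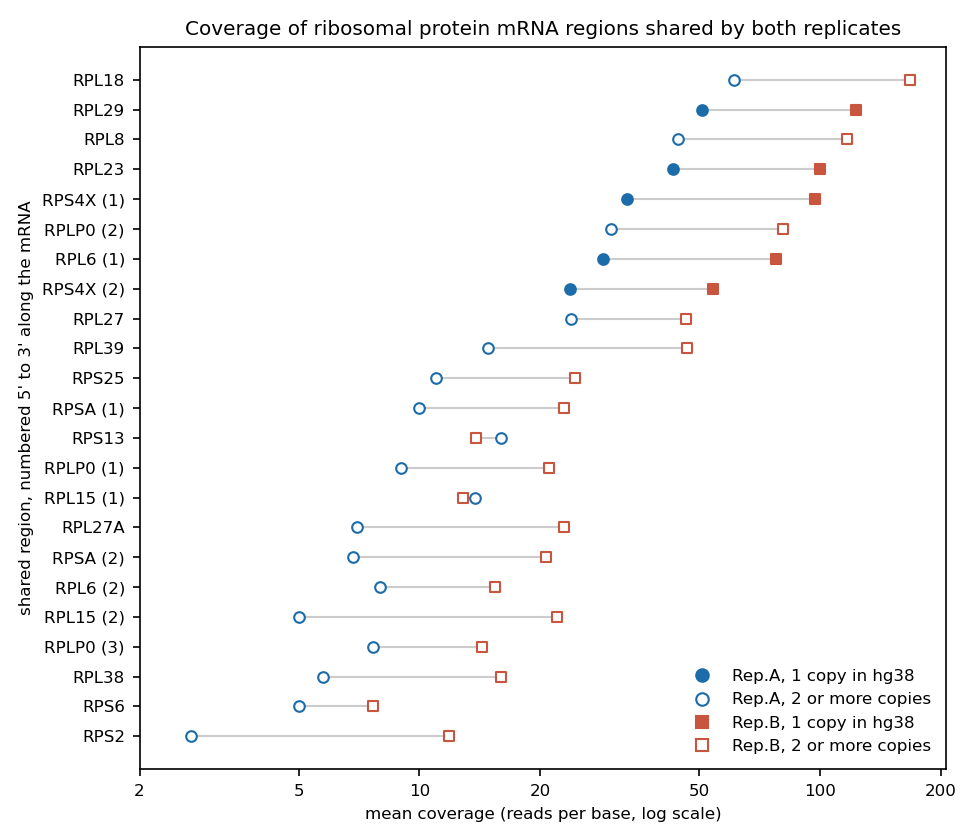
Mean coverage (reads per base, log scale) of 23 of the 26 shared regions in Rep.A (circles) and Rep.B (squares), ordered by the geometric mean; filled symbols are sequences that occur once in hg38 and open symbols those with 2 or more exact copies. RPL18 leads at 60.9 and 168.2, RPS2 is last at 2.68 and 11.9 (values at the gene), and RPS13 and RPL15 region 1 are the regions with the Rep.B value below the Rep.A value.

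Over all 26 regions, the median coverage was 14.3 (Rep.A) and 23.8 reads per base (Rep.B), against 14 and 37 over 599 shared regions of the other protein-coding genes. The order depended on genomic copies. The 7 ribosomal protein regions with a single copy in hg38 had medians of 31 and 77.8, against 15 and 39.5 over 465 such regions of the other genes. Summed over identical copies, the 41 mRNA sites found in both tables had medians of 20.1 and 64.1. No such sum was made for the other genes. The log2 difference in coverage, Rep.B minus Rep.A, had a median of 1.25 (SD 0.54, n = 26 regions) for the ribosomal protein genes and 1.42 (SD 0.59, n = 599) for the others. It ran from −0.21 in RPS13, with 16 and 13.9 reads per base, to 2.15 in RPS2. Across the 26 regions, which share both libraries, log2 coverage in Rep.A and Rep.B had a Pearson r of 0.904 and a Spearman rho of 0.857, and across the 599 others the values were 0.781 and 0.759.

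The regions lay almost all in coding sequence. Placed on the transcript with the longest coding sequence, 24 of 26, or 92.3% (75.9 to 97.9%), were coding, against 55.6% of the 599 other regions. The 3′ UTR held 2 of the 26, or 7.69%, against 37.7%, and the 5′ UTR, where the TOP motif is, held 0, for which a limit of 3 counts allows a share of up to 11.5% and the Wilson interval one of up to 12.9%, against 1.84%. Coding sequence made up 43.1% of the summed annotated mRNA length of the 19 genes and 45.2% of that of the other genes with a shared region. The share differed widely between single genes. On the canonical mRNA, 447 of 4535 bases were coding in RPL27A and 423 of 2706 in RPL23, but 882 of 945 in RPS2 and 867 of 921 in RPL6. Some annotated 3′ UTRs of ribosomal protein genes are far longer than the coding part, and which transcript ends were used in these cells was not measured.

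The exceptions in the 3′ UTR were RPL39 and RPL15. The RPL39 region began 45 bases past the stop codon, and that of RPL15 702 bases past it. A Rep.A cluster of RPL27A, with 37.3 reads per base and no partner in Rep.B, was placed 3785 bases past the stop codon, in the long 3′ UTR of the annotated transcript. A Rep.A cluster of RPL17, with 6 reads per base, lay in a 5′ UTR exon outside the Ensembl canonical transcript.

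Along the coding sequence the regions were spread from front to end. On the canonical transcripts, the midpoint fell past the middle in 18 of 24 regions, or 75% (55.1 to 88.0%), against 60.6% of 335 regions of the other genes, a value inside the interval. RPSA region 1 at 16.3%, RPS4X region 1 at 17%, RPL18 at 21.9% and RPL27A at 28.4% lay in the front part. RPL29 at 91.5%, RPL15 region 1 at 89.6% and RPL6 region 2 at 89.3% lay close to the stop codon. RPSA region 1 began 1 base from an exon edge, RPL23 lay 5 and RPL27A 7 bases from one, and no shared region crossed a splice junction, which alignment to the genome would not have kept.

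**Figure D2:**
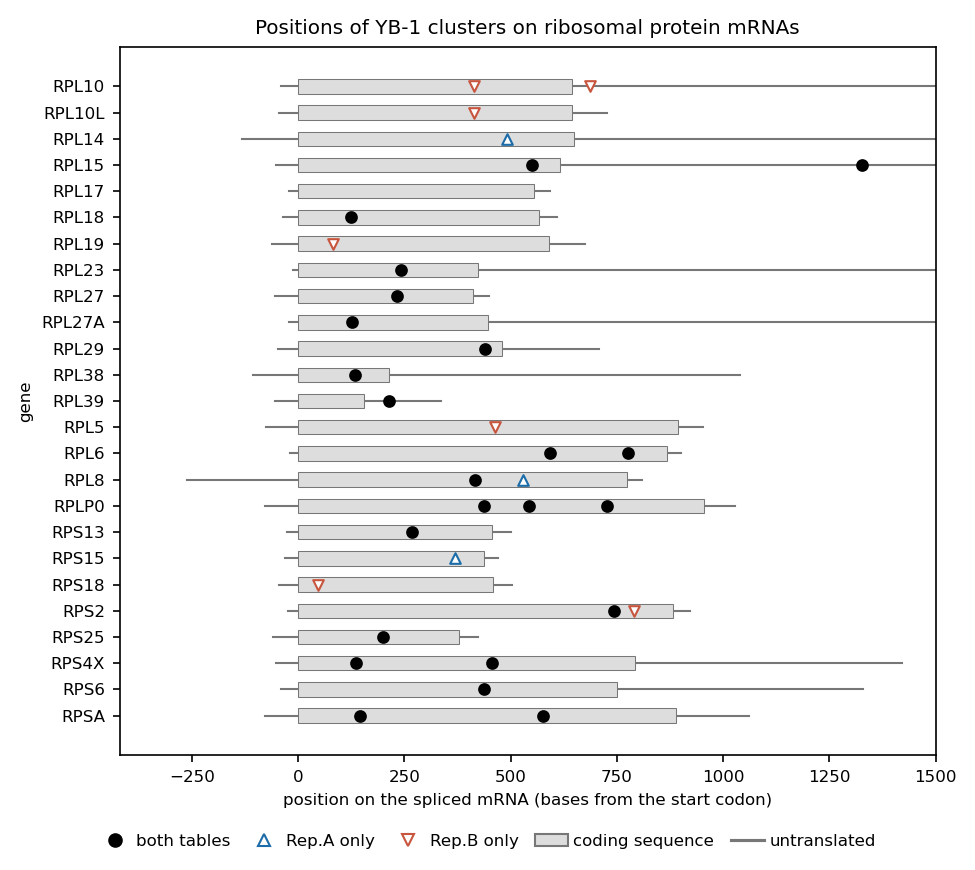
Clusters on the Ensembl canonical mRNA of 25 of the 28 genes with a cluster, in bases from the start codon, with coding sequence as grey boxes and untranslated parts as lines; filled circles are regions of both tables and open triangles clusters of 1 table. All circles but those of RPL39 and RPL15 region 2 lie within the coding boxes; lines are cut at the right edge of the axis, which leaves out the RPL27A cluster of Rep.A, and the RPL17 cluster of Rep.A is not on its canonical mRNA.

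The motif CATC, to which the cold-shock domain of YB-1 is known to bind, was present in 7 of the 26 regions, or 26.9% (13.7 to 46.1%), against 46.1% of the other regions. The related CACC was also in 7 of 26, against 43.6%, and 13 of 26, or 50.0% (32.1 to 67.9%), held either, against 71.5%. The value for the other genes was at the upper bound of the interval for CATC, inside it for CACC and above it for either motif. Among all 114992 windows of 22 bases with a T in the selected mRNAs of the 87 genes, 7.34% held CATC, 8% CACC and 14.7% either. The windows were not matched to the regions in last base, share of G, width or part of the mRNA. Their shares therefore do not show a preference for the motifs. The regions with neither motif included the RPL29, RPL23 and RPL6 sequences printed above and that of RPL18.

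The CATC regions, all coding, included RPS4X region 1, RPS4X region 2, RPLP0 region 2, RPLP0 region 3, RPSA region 1 and RPL38. In 7 of 7 the first C was the last base of a codon, so that ATC, an isoleucine codon, was read in frame. The same frame was seen for 75.7% of the 259 CATC in the whole canonical coding sequences of the 87 genes and for 65.8% of the 231 in shared regions of other genes. With 7 motifs the interval is 64.6 to 100%, and it holds both values. RPL38 has CACC and CATC in 1 region.

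The last base was G in 25 of 26 regions, or 96.2%, and in 96.7% of the others, and RPL18 was the exception. The share of G within a cluster had medians of 9.52% (Rep.A) and 9.31% (Rep.B), against 4.76% in both tables for the other genes. Width had a median of 22 bases in both groups of regions. A single T-to-C position was called in 83.9% of the Rep.A clusters and 85.3% of the Rep.B clusters, against 84.1% and 82.9% for the other genes. RPL18, RPL39, RPL6 region 1 and RPLP0 region 2 had 2 such positions in both replicates.

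**Figure D3:**
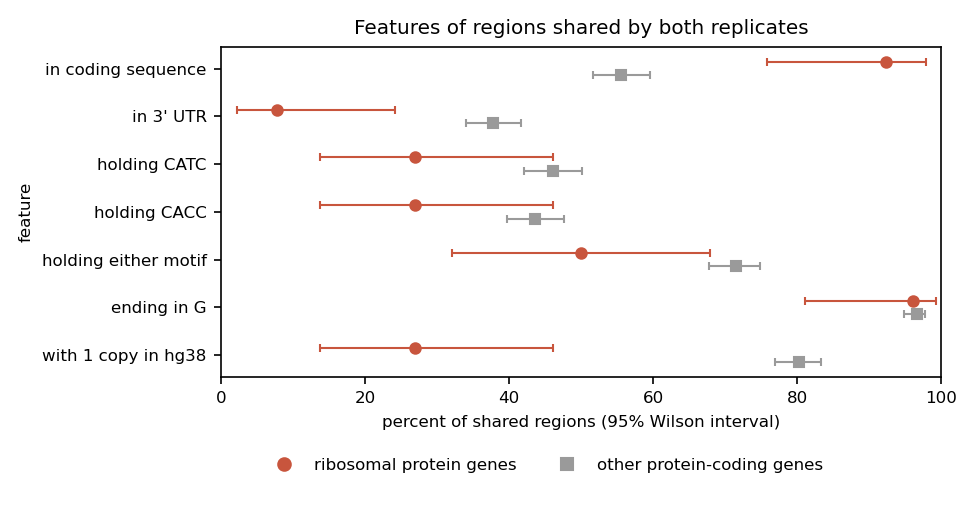
Percent of shared regions with each feature, with 95% Wilson intervals, for the 26 regions of ribosomal protein genes (circles) and the 599 of other protein-coding genes (squares; 579 for copies). Coding sequence is more frequent and single genomic copies are less frequent in the ribosomal protein genes (92.3% and 26.9%) than in the others (55.6% and 80.3%), while the share ending in G is alike.

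Ribosomal protein genes have many processed pseudogenes, copies of the spliced mRNA elsewhere in the genome. Reads had been aligned to the genome with a setting that gives a read with several equally good positions 1 of them at random. Of the 26 regions, 7, or 26.9% (13.7 to 46.1%), had a sequence that occurs once in hg38, against 80.3% of 579 regions of other genes. They included RPL29, RPL23, RPS4X regions 1 and 2 and RPL6 region 1. The most frequent was RPS2, with 10 exact copies, and the median was 2. With 1 mismatch allowed, 1 region was without a further copy.

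Outside the exons of the 87 genes, 58 clusters in the Rep.A table and 100 in the Rep.B table had a sequence found exactly in the spliced mRNA of a member. Annotated pseudogene exons held 43 and 81 of them. Of each set, 42 were also found in the other table. Their coverage had a median of 6.58 (Rep.A) and 10.5 reads per base (Rep.B) and reached 84.5 and 203.4, both at a pseudogene on chromosome 11 with the RPL18 sequence. Whether those reads came from the gene or from a transcribed pseudogene was not tested.

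When clusters were placed on the member mRNA by exact sequence, wherever they lay in the genome, 51 sites on 36 mRNAs resulted, and 41 of them, on 30 mRNAs, had clusters in both tables. This way of counting was chosen after the data were seen. Of these 30 mRNAs, 19 had a shared region of their own. RPL10, RPL5, RPS15 and RPS18 were among those with a cluster of their own in 1 table, and RPL13, RPL31, RPL41, RPS10, RPS27 and RPS3A had none. RPL37, RPL4 and RPS23 were matched in Rep.B alone, and 50 members had neither an own nor a matching cluster. Coding sequence held 36 of the 41 sites, or 87.8%, and CATC was in 13, or 31.7%. These shares, like the 30 mRNAs, have no counterpart, since copies were not pooled for the other genes.

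Summed over all sites, 51.9% of the coverage in Rep.A and 39.5% in Rep.B lay in the exons of the gene itself. RPL18 had a summed coverage of 145 (Rep.A) and 575 (Rep.B), of which 60.9 and 168.2 were at the gene. RPLP0 region 2 had 58 and 200.8 in all, shared with the copy RPLP0P6, against 30 and 80.6 at the gene. RPLP0 region 1 had no further cluster in Rep.A, at 9, and reached 139 in Rep.B. The regions with 1 copy, RPL29, RPL23 and RPS4X among them, kept their values.

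RPS13 and RPL15 region 1 had lower coverage in Rep.B than in Rep.A at the gene. Summed over copies, RPS13 had 24.1 (Rep.A) and 67.0 (Rep.B), and RPL15 region 1, as given above, was also higher in Rep.B. In the summed values 2 other sites were lower in Rep.B, RPLP0 region 3 with 38.3 and 14.3, and RPS10 with 9.96 and 6.96. The log2 difference of the summed coverage had a median of 1.56 over 41 sites, with an SD of 0.96, wider than the 0.54 at the genes.

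The strongest sites found through copies alone were on RPS27, RPL31, RPL41 and RPL13. RPS27 had 7 positions in Rep.A with a summed coverage of 50.9 and 10 positions in Rep.B with 213.9. RPL41, which encodes the shortest ribosomal protein, had 80.7 over 5 positions and 134 over 3. RPL31 had 20.4 at 1 position and 173 over 4, and RPL13 had 21 at 1 position and 110 over 2. All 4 were in both tables. The RPS27 and RPL41 sites lay in the 3′ UTR, and the RPL31 and RPL13 sites in coding sequence. The letters of 3 of these sites on the GENCODE mRNA are given next because they are absent from the genes' own clusters, with CATC and CACC in capitals.
RPS27 site, 3′ UTR: aaacCATCtcaataaacacattttg
RPL41 site, 3′ UTR: taacaaccatataataaatCACCtcttccg
RPL31 site, coding sequence: aataCACCATCaacattcacaag

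**Figure D4:**
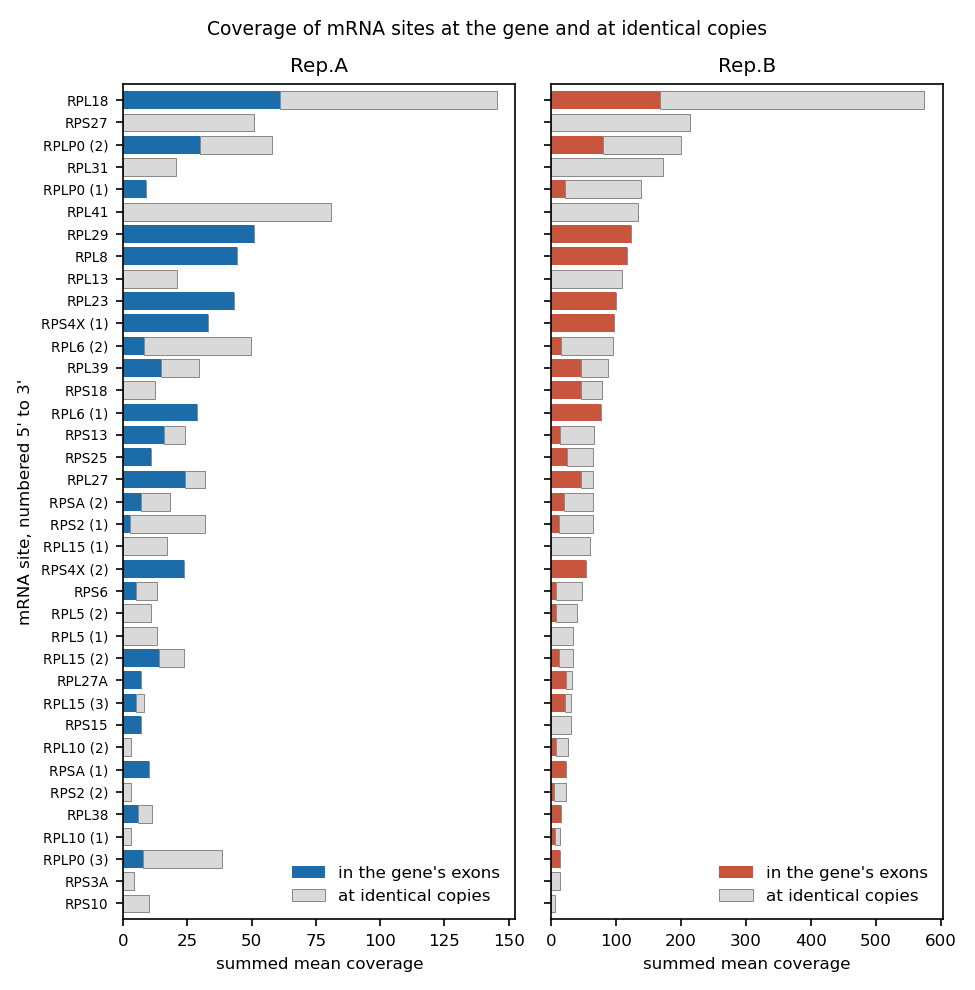
Summed mean coverage of 37 of the 41 mRNA sites with clusters in both tables, in Rep.A and Rep.B (linear axes of different length), split into the part in the gene's own exons (coloured) and the part at identical copies elsewhere (grey). RPL18 has the highest sum in both tables, at 145 and 575, and RPS27, RPL31, RPL41 and RPL13 are grey throughout; sites are numbered anew, so RPL15 regions 1 and 2 are sites 2 and 3.

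Other mRNAs of translation were set beside the group with the same counts. Of 24 further TOP mRNAs, 7, or 29.2%, had a shared region, a share close to the 21.8% of the ribosomal protein genes. Among these, RPS27A, the ubiquitin fusion, had 151 reads per base in Rep.A and 344 in Rep.B, above every region in the group at the gene. With identical copies added, RPL18 had 145 and 575. Copies were not added for RPS27A, whose region has 2 exact copies in hg38, so these sums cannot be set against its values. A cluster at the pseudogene RPS27AP16, with a sequence of 2 copies, had 71.3 in Rep.A and 121 in Rep.B. EEF2, the translocation factor, had 55.6 and 145, and VIM had 36 and 98.8. Of 57 translation factors, 9, or 15.8%, had one, with EIF4G2 at 64.0 and 121 and EIF5 at 26 and 74, next to EEF2. Mitochondrial ribosomal protein genes had a lower share, 4 of 78 or 5.13%, with MRPL35 at 19 and 67, MRPS2 at 21 and 36 and MRPL37 at 18 and 40. Of 30 ribosome assembly factors 4, or 13.3%, had one, with NCL at 25.8 and 59.0, BYSL at 10 and 30 and NOB1 at 9 and 17. All 4 mitochondrial ribosomal protein regions had a single genomic copy, and 1 of the 4 was coding.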

How the data were processed

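Adapters were removed by the authors with cutadapt 2.10, and alignment to hg38 used Bowtie 1.0.0, which placed a read with several equal positions at 1 of them at random. wavClusteR was then run on the alignments, separately per replicate. The deposited tables give, per cluster, coverage (signal, mean reads per base), counts of T bases and of T positions with a transition, their fraction, and log odds scores. The deposited sequence is that of the plus strand and was turned to the RNA strand; 0 of the clusters differed from hg38.

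Clusters were assigned to GENCODE 44 exons on their strand with Python 3.11.15 and numpy 2.4.6. Other protein-coding genes are the comparison throughout, without regions too wide for a sequence to be read. Exact copies in hg38 were counted for sequences of 18 to 100 bases. Intervals for shares are 95% Wilson intervals (scipy 1.17.1), and since PCR duplicates are not marked they cover counting error only. With 2 libraries of 1 condition no test was made. Overlap, placement and copy counts were checked on simulated data. Values are given for genes with 2 or more shared regions, the 10 genes with the highest coverage, those with a region in a UTR, genes fixed by role and 3 genes per comparison list. A gene outside this rule was named after its values were seen. The members, lists and this rule were chosen with earlier results of these data known. Some member genes are counted in totals and are not reported here by name. Alternatives were overlap, coverage and score minimums, unique sequences, single replicates, transcript choice and motif.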

Additional observations from a re-analysis of the deposited data

Results flagged for a closer look

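Clusters outside the exons of the 87 genes were not part of the comparisons of own-gene clusters, and some carried the mRNA sequence of a member without a cluster of its own, in both tables. In Rep.B their summed coverage was 213.9 for RPS27, 173 for RPL31, 134 for RPL41, 110 for RPL13, 13.9 for RPS3A and 6.96 for RPS10. Whether they stem from the genes or from transcribed copies was not tested.

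Introns of members held 3 clusters in Rep.B and 0 in Rep.A, each with a single genomic copy. One in RPS13, with 64.3 reads per base, overlapped SNORD14A, a small nucleolar RNA gene. Those in RPS24, with 14 reads per base, and in RPL27A, with 20, overlapped no annotated exon. No cluster lay antisense to an exon of a member.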

How the results depend on the processing

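The comparisons came to 43 alternative values, of which 34 stayed within the bounds of the reported one (counts within 1.5 times, shares within the 95% interval, log2 differences within 1 SD). Some of the 34 could hardly move. No paralog had a shared region to lose, and 23 of 26 regions had the same start and end before the overlap minimum. The CACC share was counted as an alternative to CATC. The tally is therefore no measure of how firm the results are. With clusters at or above the median relative log odds of their table, 6 genes had a shared region in place of 19, and 50% of Rep.A and 53.8% of Rep.B clusters were found in the other table. With sequences occurring once in hg38, the number of genes was also 6, the shares were 63.6% of 11 and 100% of 7 clusters, and 100% of 7 regions were coding. Counting copies with up to 1 mismatch left 3.85% of regions with a single copy. Pooling over identical copies, chosen after the data were seen, gave 30 genes, with no such count for the other genes. A coverage of at least 10 kept 15 of the 19 genes with a shared region, and an overlap of 50% kept 19. Leaving out Rep.A or Rep.B gave 22 to 25 genes with a cluster, 87.1 to 91.2% coding, 26.5 to 29.0% with CATC and 21.2 to 36.7% with 1 copy. The share found in Rep.A at coverage of at least 10 was 63.0%. The ratio of log odds sums, over 25 regions above 0 in both tables, had a median log2 of 0.77. No paired analysis was possible because there is 1 group. Coverage outside clusters was not analysed here, so a gene without a cluster may still have been bound.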
